A study of Homo sapiens with 10 samples.

Results

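Among the RNA regions bound by FLAG-tagged eIF4A in HEK 293T cells, 1152 coding sequences gained counts when the cells were given a rocaglate. They were selected on the measured values themselves. A coding sequence belonged to the set when it had at least 90 counts summed over the 9 anti-FLAG libraries and when its mean CPM (counts scaled as below) over the 6 rocaglate libraries was at least 1.5 times its mean over the 3 DMSO libraries. CPM is the count of a region divided by all counts of its library, over all 7 classes of region, times 1000000. Of 39472 coding-sequence rows, 17803 held at least 1 count and 7829 reached the minimum of 90, so that the members were 14.7% of the coding sequences that could be selected. The other 6677 served for comparison. Since the rule used the rocaglate-to-DMSO ratio of these coding sequences, that ratio is given below as a description, without a test. Terms such as gaining refer to the ratio alone.

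The study mapped eIF4A on RNA by eCLIP, in which ultraviolet light links a protein to the RNA it touches and the linked fragments are recovered with an antibody and sequenced. HEK 293T is an established human line derived from embryonic kidney, and every group carried the tagged eIF4A, including the DMSO controls. Each rocaglate was given at 20 nM for 1 h, against DMSO as the vehicle, before irradiation at 254 nm and 400 mJ/cm2. DMSO, silvestrol and CR-1-31-B had 3 libraries each, and a single input library, which carries the number 2, was made with no antibody step. How the tagged gene was introduced, and whether the line was 1 clone, was not given in the sources used here. Nor do the labels say that the numbers mark separate cultures, so each p-value below measures only the spread between these libraries.

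The helicase eIF4A unwinds the 5' leader of an mRNA as part of the cap-binding complex eIF4F, so that the small ribosomal subunit can load and scan. Rocaglates are plant-derived cyclopenta[b]benzofurans and their synthetic relatives. They hold eIF4A on RNA, with a known preference for stretches of purines (A and G), and the clamped helicase blocks scanning when it lies in a leader. Silvestrol is a natural product and CR-1-31-B is a synthetic hydroxamate.

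The anti-FLAG libraries held 858733 to 1804732 counts and the input library 2193699. Coding sequences took 27.3% to 35.7% of the counts of an anti-FLAG library. The leader share was 20.7% to 24.1% with DMSO and 22.8% to 35% with a rocaglate, the lowest of the 6 being CR-1-31-B library 3. RNA levels per treatment were not analysed here, so more bound eIF4A per mRNA and more mRNA cannot be told apart here. Values of single libraries below are listed for libraries 1, 2 and 3 of each group, in that order. CPM is relative, so a higher CPM in 1 region means a lower share elsewhere. Highly bound below means a high CPM in the anti-FLAG libraries, without correction for the input, so an abundant mRNA can also be highly bound.

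Coding sequences of 8 members are shown to make visible how purine content varied within the set. They were taken by gene symbol from GENCODE release 29 transcripts (GRCh38), not from the study's own annotation. Capitals mark the longest unbroken run of A and G in the coding sequence, and lower case the bases around it. The first is a complete coding sequence, the next 3 have their longest run close to the start codon, the following 2 have a long run far downstream, and the last 2 are highly bound members whose longest run is short.
RPL41: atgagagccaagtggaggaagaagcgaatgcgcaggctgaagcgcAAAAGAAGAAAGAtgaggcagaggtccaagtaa
PMAIP1: atgcctGGGAAGAAGGcgcgcaagaa
HAUS1: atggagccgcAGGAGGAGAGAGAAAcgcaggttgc
RILPL2: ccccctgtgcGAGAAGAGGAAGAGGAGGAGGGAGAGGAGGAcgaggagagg
CCND1: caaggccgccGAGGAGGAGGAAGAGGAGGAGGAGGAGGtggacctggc
CSRNP1: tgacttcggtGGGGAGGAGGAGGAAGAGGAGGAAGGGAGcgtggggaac
ZNF503: cggctcggatAAGAAGGAGccgggaggcg
CDKN2A: cgcggctcacGGGGGAGtgggcagcgc
Bases are counted from the A of the start codon. RPL41 is shown from base 1 to 78 of 78, with its exons lying within chr12:56116788-56117524 (plus strand). The PMAIP1 stretch covers bases 1 to 26 of 165, at chr18:59900178-59900203 (plus strand). For HAUS1 it covers bases 1 to 35 of 837 and crosses an intron within chr18:46104412-46105198 (plus strand). RILPL2 is shown for bases 10 to 60 of 636, at chr12:123436361-123436411 (minus strand). The CCND1 stretch is bases 804 to 851 of 888, at chr11:69651198-69651245 (plus strand), and that of CSRNP1 is bases 1200 to 1248 of 1770, at chr3:39143577-39143625 (minus strand). ZNF503 is shown for bases 543 to 571 of 1941, at chr10:75400119-75400147 (minus strand), and CDKN2A for bases 83 to 109 of 399, at chr9:21994223-21994249 (minus strand). For each symbol 1 transcript was used. The longest GENCODE coding sequence has 504 bases for CDKN2A and 411 for PMAIP1, so their runs are those of the shorter transcripts shown. The longest runs measured 13 bases in RPL41, 10 in PMAIP1, 15 in HAUS1, 31 in RILPL2, 28 in CCND1, 29 in CSRNP1, 9 in ZNF503 and 7 in CDKN2A.

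Most members gained moderately and at low counts. The median ratio was 1.86 (interquartile range 1.65 to 2.28). In 698 members it lay between 1.5 and 2, in 454 it was 2 or more, and in 103 it was 3 or more. The median member had 216 counts over the 9 libraries, and its coding sequence stood at a median of 11.9 CPM with DMSO and 23.9 CPM with a rocaglate. Among the other coding sequences the median ratio was 0.892, and over all 7829 it was 0.956. At the edge of the rule stood the members POU3F2, SOAT1 and TTLL3 and the nonmembers TSC22D2, MIEF2 and GNB5, all of which had a ratio that rounds to 1.5. Exactly 90 counts were held by 9 members, among them NDUFAF4 and HTRA3.

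Separation of the libraries was complete in a minority. All 6 rocaglate libraries lay above all 3 DMSO libraries in 198 members (17.2%), beside 2.61% of all coding sequences with 90 counts. The rule used these values, so nothing is read from that difference. A further 287 members had 5 rocaglate libraries above every DMSO library, 315 had 4, 201 had 3, 121 had 2, 27 had 1 and 3 had 0. When each library was left out in turn, 606 of the 1152 members stayed at a ratio of 1.5 or more in all 9 repeats. Leaving out DMSO library 2 took 303 members below the ratio, and leaving out CR-1-31-B library 2 took 185. Within the libraries of number 1, 770 members (66.8%) had a ratio of at least 1.5, within number 2 966 (83.9%) and within number 3 708 (61.5%).

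**Figure D1:**
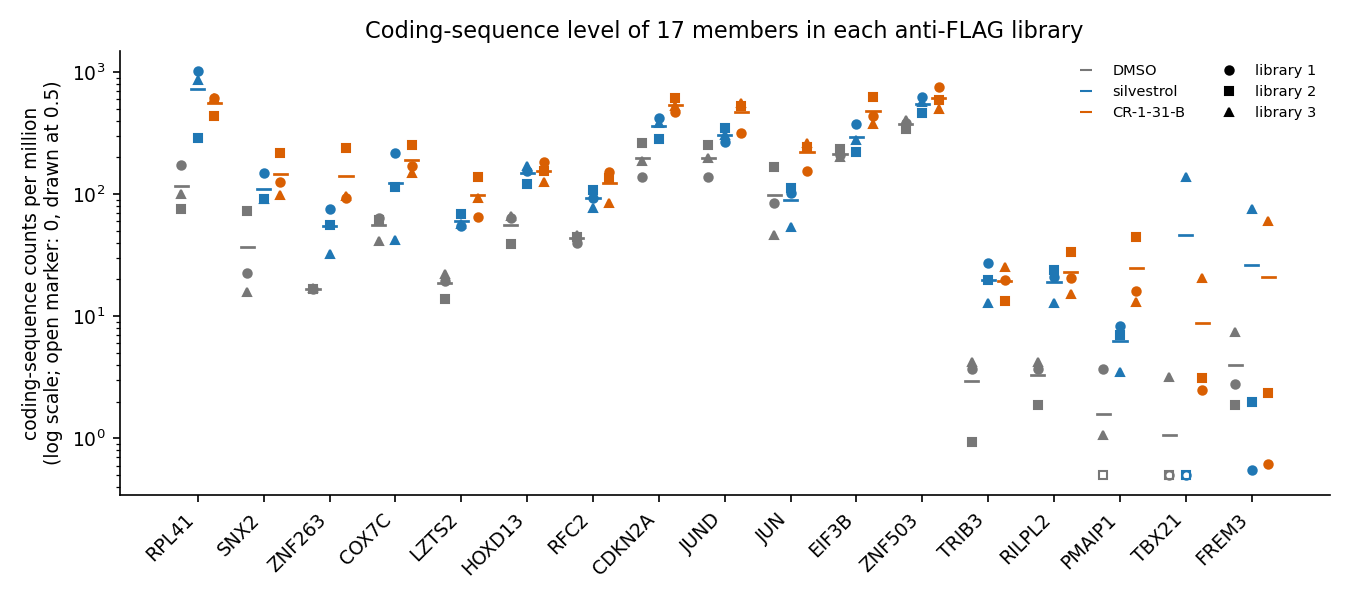
Coding-sequence CPM (log axis) of 17 members in the 9 anti-FLAG libraries, grouped by treatment (colour) and library number (marker shape), with horizontal bars at the group means. RPL41, ZNF263, LZTS2, HOXD13, RFC2, TRIB3 and RILPL2 have all 6 rocaglate libraries above the DMSO libraries, while TBX21 and FREM3 are high only in the libraries of number 3.

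The strongest gain among highly bound members was in RPL41, which encodes the smallest protein of the large ribosomal subunit. Its coding sequence stood at 173, 75.4 and 99.6 CPM with DMSO, 1018, 289 and 854 CPM with silvestrol and 616, 435 and 611 CPM with CR-1-31-B. Every rocaglate library was above every DMSO library. The mean went from 116 ± 50.7 (SD, n = 3) to 637 ± 267 (SD, n = 6), a ratio of 5.5. The input library held 50.1 CPM (95% exact Poisson interval 41.2 to 60.4), below the DMSO mean. RPL41 has near-identical copies in the genome, and how the authors assigned reads among them is not given, so its level is uncertain.

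Other members with high ratios came from many functions. ZNF263, a C2H2 zinc finger transcription factor, stood at 16.8, 16.8 and 17 CPM with DMSO, 75.9, 55.8 and 32.6 CPM with silvestrol and 92.5, 237 and 96.1 CPM with CR-1-31-B. The DMSO libraries hardly differed, and all 6 rocaglate libraries were above them, giving a ratio of 5.84. SNX2, a sorting nexin of the retromer that recycles cargo from endosomes, stood at 22.4, 72.6 and 15.9 CPM with DMSO, 148, 90.6 and 90.8 CPM with silvestrol and 125, 217 and 98.3 CPM with CR-1-31-B. Its rocaglate libraries also lay above all DMSO libraries, and its ratio of 3.47 was 6.70 without DMSO library 2. TRIB3, a stress-induced pseudokinase, stood at 3.73, 0.931 and 4.24 CPM with DMSO, 27.2, 19.9 and 12.8 CPM with silvestrol and 19.9, 13.3 and 25.1 CPM with CR-1-31-B, with no overlap and a ratio of 6.63. RILPL2, a partner of Rab GTPases at the primary cilium, stood at 3.73, 1.86 and 4.24 CPM with DMSO, 21.1, 23.9 and 12.8 CPM with silvestrol and 20.5, 33.6 and 15.3 CPM with CR-1-31-B. Its lowest rocaglate library was above its highest DMSO library, and its ratio was 6.46. LZTS2, a leucine zipper protein, had a ratio of 4.27 on more counts (640), again with 6 of 6 rocaglate libraries above DMSO. RND2 reached 8.62 (18.8 without DMSO library 3), FAM213A 8.32, and GRPEL2, a nucleotide exchange factor of the mitochondrial Hsp70, 6.54.

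The highest ratios rested on very few DMSO counts or on single libraries. TBX21, the T-bet transcription factor of T cells, had the top ratio of 25.9, but stood at 0, 0 and 3.18 CPM with DMSO, 0, 0 and 139 CPM with silvestrol and 2.48, 3.13 and 20.7 CPM with CR-1-31-B. Silvestrol library 3 supplied 84.0% of its rocaglate CPM, and without that library the ratio was 4.97. FREM3, an extracellular matrix protein, stood at 2.8, 1.86 and 7.42 CPM with DMSO, 0.554, 1.99 and 75.7 CPM with silvestrol and 0.621, 2.35 and 60.1 CPM with CR-1-31-B. It was high only in the number 3 libraries of both compounds, and its ratio of 5.85 was 3.26 without silvestrol library 3 and 10.1 without DMSO library 3. The input held 0 counts of the FREM3 coding sequence, which allows up to 3, and no leader counts were seen. PMAIP1, which encodes the BH3-only protein NOXA, stood at 3.73, 0 and 1.06 CPM with DMSO, 8.31, 6.97 and 3.49 CPM with silvestrol and 16.1, 44.6 and 13.1 CPM with CR-1-31-B. Its ratio of 9.66 became 29.1 without DMSO library 1, 6.44 without DMSO library 2 and 6.01 without CR-1-31-B library 2. In 16 members a single library supplied over 50% of the rocaglate CPM.

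Among the 10 most highly bound members, ratios ran from 1.53 in PABPN1 to that of RPL41. ZNF503, a zinc finger transcriptional repressor, had the highest coding-sequence level of the set, at 379, 339.7 and 407 CPM with DMSO, 623, 459 and 565 CPM with silvestrol and 756, 585 and 498 CPM with CR-1-31-B. All rocaglate libraries were above the DMSO libraries although the ratio was only 1.55. CDKN2A, which encodes the cell cycle inhibitors p16INK4a and ARF in overlapping frames, stood at 139, 264 and 188 CPM with DMSO, 417, 281 and 385 CPM with silvestrol and 470.1, 608 and 522 CPM with CR-1-31-B, without overlap and with a ratio of 2.27. The input held 209 CPM of the ZNF503 coding sequence, the highest of the members, and 47.9 CPM of that of CDKN2A. TMED9, a p24 cargo protein of the early secretory pathway, had a ratio of 1.92 with 4 of 6 rocaglate libraries above DMSO. LAPTM4B, a lysosomal membrane protein, had 1.74 with 5 of 6, and TNRC18 1.7 with 6 of 6.

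Members had lower levels than the rest in the input. Their median input level was 10.5 CPM per kilobase of coding sequence, beside 13.5 for the other coding sequences. The DMSO mean was above the input in 629 members (54.6%) and in 57.0% of the others. With a rocaglate the mean was above the input in 1018 members (88.4%) and in 47.0% of the others. The rule bears on the input levels and on both shares, since it favours low DMSO and high rocaglate values. Its count minimum includes the rocaglate libraries, so a coding sequence low in the input could enter through these. Nothing is read from the levels or the shares. The single input library gives no replicate check.

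A set of 29 gene lists was used to describe functions, and each list is given as members among its coding sequences with 90 counts, to be read beside 14.7% overall. That share varied with coding length, from 28.0% under 500 bases to 5.79% at 3000 or more. Median coding length ran from 393 bases in histones to 8908.5 in cadherins. The part of length in the list shares was not tested. The lists were written with earlier results of these data known, and no test was made over them. The highest share was among immediate early genes, which respond to growth signals and stress without new protein synthesis, with 9 of 20 (45%). Zinc finger genes named ZNF had 40 of 137 (29.2%), and other zinc finger transcription factors 16 of 53 (30.2%). mRNAs known to be sensitive to eIF4A inhibition had 5 of 19 (26.3%), histones 9 of 42 (21.4%), developmental transcription factors 14 of 81 (17.3%) and ubiquitin enzymes 38 of 220 (17.3%). Initiation factors had 7 of 42 (16.7%), chaperones 7 of 50 (14%), signalling kinases 14 of 100 (14%) and oxidative phosphorylation 11 of 86 (12.8%).

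Several lists of different functions had shares under 10%. They differ in median coding length, with 474 and 441 bases for the large and small ribosomal subunit and 3430.5 for chromatin regulators. The large ribosomal subunit had 3 of 45 (6.67%) and the small subunit 2 of 29 (6.90%), with median ratios over the whole list of 0.842 and 0.817. Mitochondrial ribosomal proteins had 6 of 63 (9.52%), chromatin regulators 8 of 106 (7.55%), and DNA replication and repair 5 of 83 (6.02%). Cadherins had 1 of 16 (6.25%), microtubule proteins 8 of 95 (8.42%), solute carriers 12 of 135 (8.89%) and the actin cytoskeleton 5 of 52 (9.62%). None of 33 aminoacyl-tRNA synthetases and none of 43 DEAD and DEAH box helicases, the family of eIF4A itself, was a member. Their list medians were 0.822 and 0.945.

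**Figure D2:**
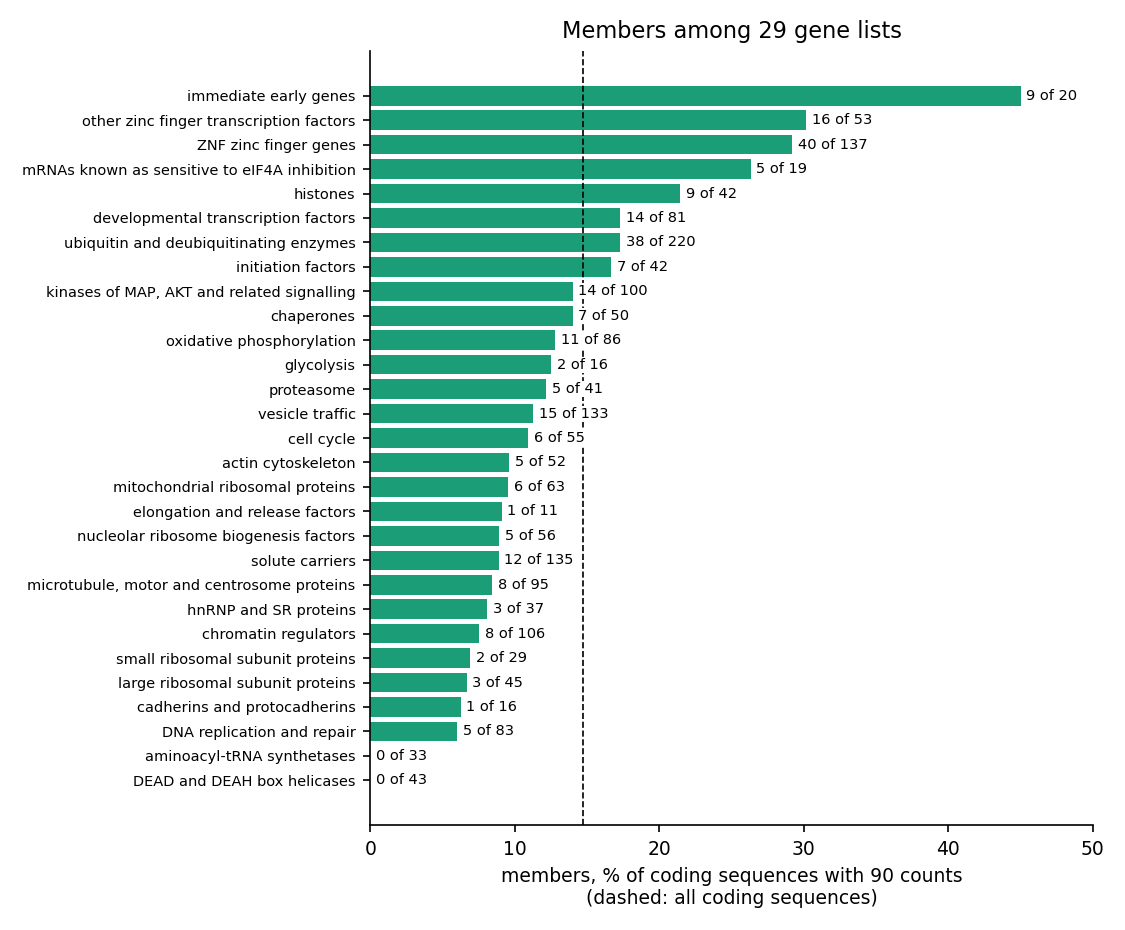
Members as a percentage of the coding sequences with 90 counts in each of 29 gene lists (horizontal bars, with members and list size printed), beside the 14.7% of all coding sequences (dashed). Immediate early genes (9 of 20) lead, and aminoacyl-tRNA synthetases (0 of 33) and DEAD and DEAH box helicases (0 of 43) are at the bottom.

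The immediate early members were JUND, JUN, MYC, IER5, IER2, DUSP1, ZFP36L1, DUSP2 and KLF6. JUND and JUN encode subunits of the AP-1 transcription factor. The JUND coding sequence stood at 138, 252 and 197 CPM with DMSO, 268, 348 and 305 CPM with silvestrol and 314, 528 and 560.2 CPM with CR-1-31-B, without overlap and with a ratio of 1.98. JUN stood at 84, 167 and 46.6 CPM with DMSO, 102, 112 and 53.6 CPM with silvestrol and 156, 245 and 261 CPM with CR-1-31-B. Its groups overlapped, since DMSO library 2 was above all 3 silvestrol libraries, and only 2 rocaglate libraries exceeded every DMSO library. The JUN ratio of 1.56 was 0.898 with silvestrol alone and 2.23 with CR-1-31-B alone, and 2.37 without DMSO library 2. MYC, a growth-promoting transcription factor, stood at 72.8, 88.4 and 45.6 CPM with DMSO, 125, 92.6 and 109 CPM with silvestrol and 125, 118 and 107 CPM with CR-1-31-B, with all rocaglate libraries above DMSO and a ratio of 1.64. IER5 had a ratio of 1.75, IER2 2.44, and the phosphatase gene DUSP1 2.77. All 7 leaders of these members that reached 90 counts also had a ratio of at least 1.5, beside 55.8% of all member leaders and 39.8% of all leaders.

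Transcription factors of other kinds were numerous, and their leaders varied. ZNF768, with a ratio of 1.81, had 6 of 6 rocaglate libraries above DMSO. HOXD13, a homeobox factor of limb development, stood at 63.5, 39.1 and 65.7 CPM with DMSO, 154, 122 and 171 CPM with silvestrol and 182, 154 and 124 CPM with CR-1-31-B, without overlap and with a ratio of 2.7. PBX2, a partner of HOX proteins, had a ratio of 1.55, and ZBTB10 1.84. Of 31 leaders of ZNF members with 90 counts, 15 gained at least 1.5-fold. Among the other zinc finger factors 7 of 10 did, and among the developmental factors 7 of 9. These counts stand beside 55.8% of all member leaders with 90 counts and 39.8% of all leaders. Many ZNF genes are close paralogs, so reads may be shared among them.

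Within the translation machinery the few members were scattered. EIF3B, the scaffold subunit of initiation factor eIF3, stood at 208, 235 and 200.4 CPM with DMSO, 375, 223 and 279 CPM with silvestrol and 432, 620.0 and 372 CPM with CR-1-31-B, and only silvestrol library 2 fell within the DMSO range. Its ratio was 1.79. EIF2S2, the beta subunit of the factor that brings the initiator tRNA, had a ratio of 1.83, and EIF3G 1.51. Besides RPL41, the ribosomal members RPLP1 and RPL7 had ratios of 1.6 and 1.95. MRPL3, of the mitochondrial ribosome, reached 2.42. RRS1, a ribosome assembly factor, had 3.47 with 5 of 6 rocaglate libraries above DMSO.

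Mitochondrial proteins, histones and other nuclear proteins were also encoded by members. COX7C, a small subunit of cytochrome c oxidase, stood at 63.5, 61.4 and 41.3 CPM with DMSO, 215, 114 and 41.9 CPM with silvestrol and 171, 254 and 148 CPM with CR-1-31-B. All but silvestrol library 3 exceeded the DMSO libraries, and the ratio was 2.84. SDHD, the membrane anchor of succinate dehydrogenase, had a ratio of 3.26. RFC2, a subunit of the clamp loader of DNA replication, stood at 40.1, 44.7 and 46.6 CPM with DMSO, 93.6, 108 and 76.9 CPM with silvestrol and 152, 134 and 84.1 CPM with CR-1-31-B, without overlap and with a ratio of 2.47. The histone genes HIST4H4 and HIST1H1C had ratios of 1.73 and 1.58, and histone genes are also near-identical copies. USP39, a splicing factor of the deubiquitinase family, had 3.07, and the ubiquitin ligase TRIM11 2.43.

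Whether the leader gained along with the coding sequence was examined next. The rule did not use the leader row, but both rows come from the same libraries and the same mRNA, so the leader is not independent support for the coding sequence. The 5' leader reached 90 counts in 711 of the 1152 member genes and was too low to be judged in 441. Of the 711, 397 (55.8%) had a leader ratio of at least 1.5, 205 (28.8%) lay between 1 and 1.5, and 109 (15.3%) were below 1. Over all 6611 leaders with 90 counts, 39.8% had a ratio of at least 1.5. Among the other coding sequences it was 38.2% of 4294, with 29.1% below 1. The median leader ratio was 1.6 for members and 1.28 for the others. The leader share gaining was above that of the others within each library number, at 62.7% and 46.0% for number 1, 55.3% and 45% for number 2, and 49.1% and 34.6% for number 3. Across the 5005 genes with both rows measured, the ratios of coding sequence and leader had a rank correlation of 0.202, a description over genes that share libraries and depth.

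Full separation was likewise more frequent in member leaders. All 6 rocaglate libraries were above all DMSO libraries in 119 of 711 member leaders (16.7%), beside 8.86% of all leaders with 90 counts. Among the 198 members whose coding sequence separated fully, 129 had a measured leader, and 83 of these (64.3%) gained. Among the 103 members with a ratio of at least 3, 59 leaders were measured and 36 (61.0%) gained.

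**Figure D3:**
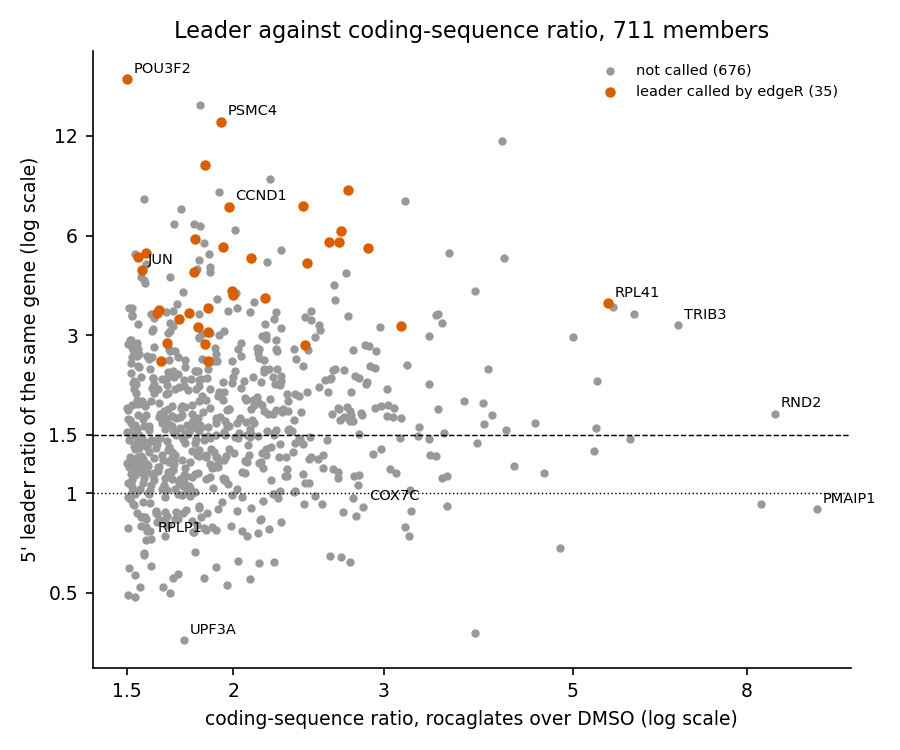
Leader ratio (rocaglates over DMSO, log axis) against coding-sequence ratio (log axis) for the 711 members whose leader had 90 counts. Each point is 1 gene, orange points are the 35 leaders called by edgeR, the dashed line marks 1.5 and the dotted line 1; 109 points lie below 1, and RPL41 and TRIB3 are high on both axes.

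In the edgeR quasi-likelihood fit over all features, 35 of 746 member leaders tested (4.69%) were higher with both rocaglates at a Benjamini-Hochberg adjusted p under 0.05, beside 1.74% of all 7122 leaders tested. None was lower. With the library number as a block the call count was 111, beside 6.36% of all leaders. The count moved with every omitted library. Dropping DMSO library 1, 2 or 3 gave 9, 6 or 3 calls. Dropping silvestrol library 1, 2 or 3 gave 14, 55 or 22, and for CR-1-31-B the counts were 15, 12 or 70. The share of all features called moved as well. It was 0.60% in the main fit, 0.018% without DMSO library 3 and 1.26% without CR-1-31-B library 3.

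The called leaders had various functions, among them growth and the cell cycle. The cell cycle list had 6 members among 55 coding sequences (10.9%), beside 14.7% overall. Of its 6 measured member leaders 3 gained, beside 55.8% of all member leaders. CCND1, which encodes cyclin D1, had a leader at 5.6, 13 and 8.48 CPM with DMSO, 74.2, 71.7 and 74.5 CPM with silvestrol and 64.6, 64.1 and 49.1 CPM with CR-1-31-B. The groups were far apart, with the mean going from 9.04 ± 3.74 (SD, n = 3) to 66.4 ± 9.62 (SD, n = 6). The change was 2.90 ± 0.41 (SE) on the log2 scale, with an edgeR adjusted p of 0.00291. Its coding sequence gained less, at 14, 17.7 and 12.7 CPM with DMSO, 19.9, 15.9 and 24.5 CPM with silvestrol and 25.5, 60.2 and 29.5 CPM with CR-1-31-B, a ratio of 1.98. POU3F2, a neural transcription factor, had the highest leader ratio among members with DMSO leader counts, 17.9, and just met the rule in its coding sequence. Its leader stood at 4.67, 0.931 and 4.24 CPM with DMSO, 69.8, 75.7 and 61.7 CPM with silvestrol and 47.8, 84.4 and 12 CPM with CR-1-31-B, the lowest rocaglate value being CR-1-31-B library 3 (edgeR adjusted p 0.00409). The POU3F2 call held in all 9 fits that left out 1 library, and the CCND1 call in 8. Of the 35 called leaders, 13 held in no more than 2 of these 9 fits.

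The JUN leader was the most highly bound of those described, at 355, 562 and 218 CPM with DMSO, 847, 1009 and 429 CPM with silvestrol and 1826, 4472 and 2120.5 CPM with CR-1-31-B. CR-1-31-B libraries were all above silvestrol libraries, and silvestrol library 3 lay within the DMSO range. The edgeR change was 1.99 ± 0.41 (SE) on the log2 scale (adjusted p 0.0274), and the call held in 4 of the 9 fits without 1 library. For MYC the leader stood at 134, 95.9 and 91.2 CPM with DMSO, 447, 416 and 312 CPM with silvestrol and 394, 439 and 296 CPM with CR-1-31-B, without overlap (edgeR adjusted p 0.00539, called in 7 of 9 fits). The leader of RPL41 also separated fully, at 119, 94 and 47.7 CPM with DMSO, 465, 292 and 319 CPM with silvestrol and 274, 409.7 and 199.8 CPM with CR-1-31-B (edgeR adjusted p 0.0145, called in 5 of 9 fits). So did those of FZR1, an activator of the anaphase-promoting complex, with a ratio of 5.87, and of TPM3, a tropomyosin, with 5.54, called in 6 and 7 of 9 fits. PSMC4, an ATPase of the proteasome, had 0 leader counts in all 3 DMSO libraries. Taken against a floor of 3 counts over the DMSO group, its leader was at least 13.3-fold higher (8.67-fold without DMSO library 1 and 8.65-fold without DMSO library 2), and its call held in 3 of 9 fits. With the library number as a block, the leaders named here, CCND1 and POU3F2 had edgeR adjusted p of 6.4e-05 (JUN) to 0.011 (PSMC4). No library was left out of the blocked fit.

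Other high leader ratios were not called in the unblocked fit. The leader of HAUS1, a subunit of the augmin complex of the spindle, had a ratio of 11.6 on 97 counts, and that of KLRG2 14.8 on 130. HAUS1 gave 7.75 without DMSO library 2 and 25.3 without DMSO library 3, and KLRG2 gave 9.9 and 32.4. The TRIB3 leader stood at 18.7, 17.7 and 5.3 CPM with DMSO, 32.1, 26.9 and 31.4 CPM with silvestrol and 37.9, 105 and 34.9 CPM with CR-1-31-B, with no overlap. Its edgeR adjusted p was 0.132, and 0.0360 with the library number as a block, where it was called. For HOXD13 the leader stood at 56.9, 33.5 and 29.7 CPM with DMSO, 122, 81.7 and 127 CPM with silvestrol and 101, 101 and 33.9 CPM with CR-1-31-B. CR-1-31-B library 3 lay within the DMSO range, although each rocaglate library was above the DMSO library of its own number. The edgeR adjusted p was 0.142, and 0.0351 with the block, so that HOXD13 was called there too. HAUS1 and KLRG2 were called in neither fit, with edgeR adjusted p of 0.0691 and 0.0523 under the block.

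In other members the leader moved little or the opposite way. The RPLP1 leader stood at 527, 649.5 and 333 CPM with DMSO, 452, 335 and 319 CPM with silvestrol and 442, 432 and 219 CPM with CR-1-31-B, with overlapping groups and a ratio of 0.728 (edgeR adjusted p 0.749), whereas its coding sequence was a member. COX7C, with a coding-sequence ratio of 2.84, had a leader ratio of 0.911. The PMAIP1 leader had a ratio of 0.895 (1.64 without DMSO library 2). The lowest leader ratio belonged to UPF3A, a factor of nonsense-mediated decay, at 20.5, 30.7 and 11.7 CPM with DMSO, 11.1, 0 and 5.82 CPM with silvestrol and 16.1, 4.69 and 7.64 CPM with CR-1-31-B. Of the 6 rocaglate libraries, CR-1-31-B library 1 alone reached the DMSO range, with a ratio of 0.361 and an edgeR adjusted p of 0.472. Its coding-sequence ratio of 1.75 was 3.14 without DMSO library 2. The leaders of PABPN1, a nuclear poly(A) binding protein, and DCTPP1, a nucleotide pyrophosphatase, had ratios of 0.486 and 0.492.

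**Figure D4:**
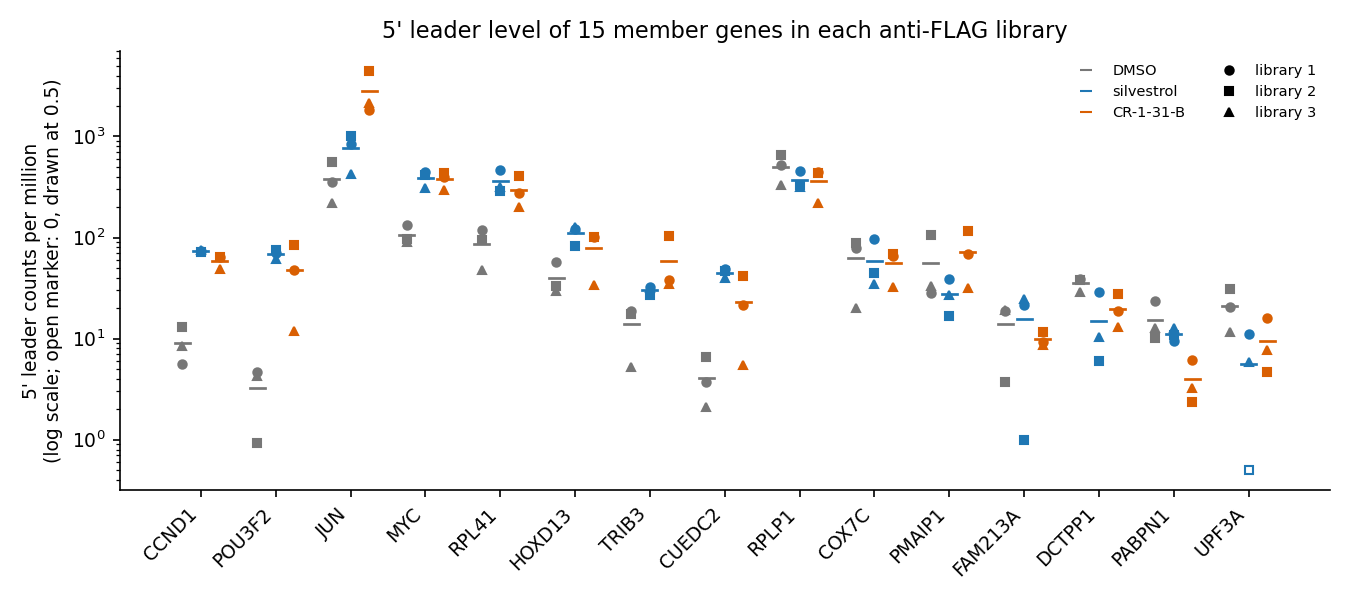
Leader CPM (log axis) of 15 member genes in the 9 anti-FLAG libraries, by treatment (colour) and library number (marker shape), with bars at the group means. The leaders of CCND1, POU3F2, MYC and RPL41 have all 6 rocaglate libraries above the DMSO libraries, while RPLP1, COX7C and PMAIP1 overlap and DCTPP1, PABPN1 and UPF3A are lower on average with rocaglates.

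Most 3'UTRs of member genes did not gain, though more gained than in other genes. The 3'UTR reached 90 counts in 611 members, and 56 of these (9.17%) had a ratio of at least 1.5, beside 5.13% of all 3'UTRs with 90 counts and 3.51% of those of the other coding sequences. In 397 (65.0%) the ratio was below 1, beside 74.4% for the other coding sequences. The median was 0.891 for members and 0.821 for the others. Across the 4344 genes with both rows measured, the ratios of coding sequence and 3'UTR had a rank correlation of 0.134, again a description over genes that share libraries and depth. JUN and IER5 were among the 56, with 3'UTR ratios of 1.91 and 2.13.

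Members had short coding sequences. GENCODE coding sequences were matched to 1134 of the 1152 by symbol, 14 of them through a synonym. The median coding length was 1157 bases in members and 1653 in the others. Under 500 bases, 143 of 511 coding sequences (28.0%) were members. The share was 21.1% from 500 to under 1000 bases, 17.3% from 1000 to under 1500, 12.8% from 1500 to under 2000, 10.6% from 2000 to under 3000, and 5.79% (86 of 1486) at 3000 or more. The shortest class thus held 4.84 times the share of the longest. The order also held at matched counts. With 360 to under 720 counts, members were 23.9% of coding sequences under 1000 bases, 13.5% of those from 1000 to under 2000, and 6.0% of those of 2000 or more. With 1440 counts or more the shares were 25.7%, 11.3% and 4.46%.

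Within each library number the share of coding sequences with a ratio of at least 1.5 was also higher under 500 bases than at 3000 or more. It was 27.8% and 7.27% for number 1, 35.6% and 20.1% for number 2, and 31.5% and 14.1% for number 3. Leaders did not show this order. Their median ratio was 1.23 for genes with coding sequences under 500 bases and 1.4 for those of 3000 or more, while that of the coding sequences went from 1.04 to 0.874. Short coding sequences also differ in input level, and the rule for reads that touch both a leader and a coding sequence is not given; their part in the result was not tested.

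**Figure D5:**
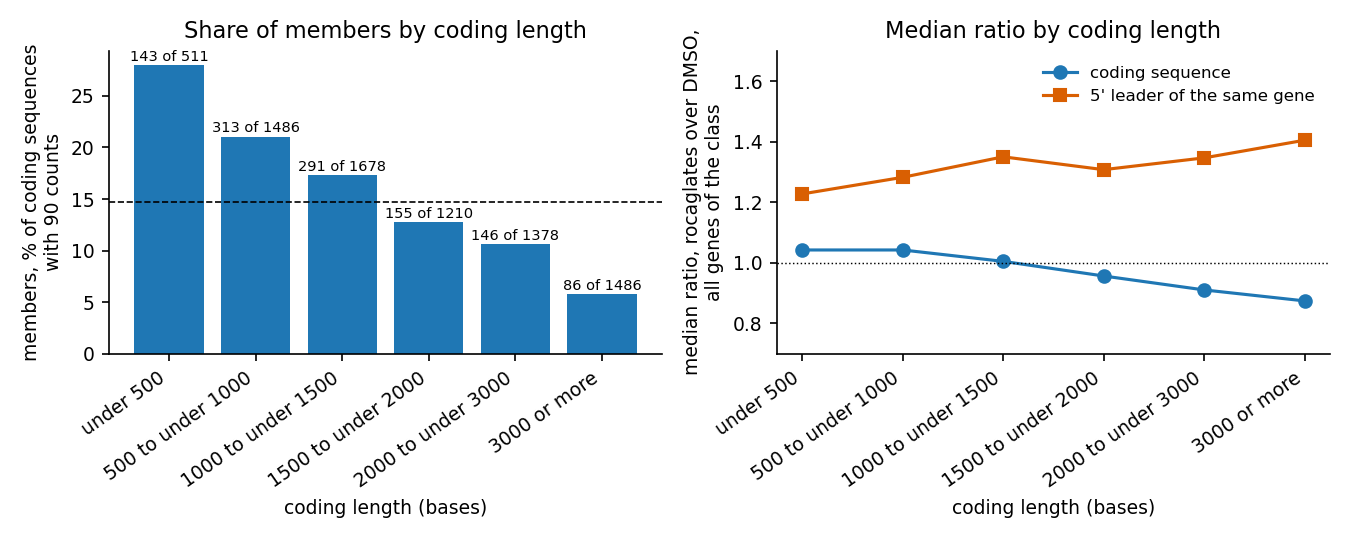
Left, members as a percentage of coding sequences with 90 counts in 6 classes of coding length (bases), with the 14.7% of all coding sequences dashed and the numbers printed on the bars. Right, the median ratio of rocaglates over DMSO for all coding sequences of each class and for the leaders of the same genes; the share of members falls from 28.0% to 5.79% and the median coding-sequence ratio from 1.04 to 0.874.

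Differences in purine content between members and the others varied with coding length. A hexamer made of A and G only occupied a median of 3.78% of positions in member coding sequences and 3.62% in the others. Under 500 bases these medians were 4.45% and 3.38%, from 2000 to under 3000 bases 3.62% and 3.81%, and at 3000 or more 4.21% and 3.95%. In the first 100 bases the mean was 4.40% in members and 3.59% in the others, and 6.08% in the members with a ratio of at least 3. For coding sequences under 500 bases the means over the first 100 bases were 5.72% in members and 3.19% in the others. For those of 3000 bases or more they were 4.15% and 4.39%. The longest purine run had a median of 12 bases in members and 13 in the others, which differ in length. Under 500 bases it was 10 and 9, and in each of the 5 longer classes the medians were equal. GAGAGA or AGAGAG, searched on the sense strand, was present in 50.1% of members, 58.6% of the others and 53.0% of all GENCODE coding sequences, which differ in length. In 5 equal classes of purine hexamer share, members made up 14.1%, 12.3%, 14.8%, 14.7% and 17.4% from the lowest to the highest. By GC content in 5 classes the share rose from 11.1% in the lowest to 19.7% in the highest. The GC difference also varied with coding length. Under 500 bases the median was 54.5% in members and 54.8% in the others. From 1000 to under 1500 bases it was 55.8% and 55.9%, and at 3000 or more 57.2% and 51.2%. In the remaining length classes members had the higher median. The sequences printed above were chosen to differ, so nothing about the other members is read from them. Among the printed ones, RILPL2 and CSRNP1 hold long runs whereas ZNF503 and CDKN2A, which have a high CPM not corrected for the input, do not.

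The compounds were given at the same dose and time and were compared with each other. The rule used the mean over both compounds, so a coding sequence could enter through 1 of them, and it bears on the shares below that set members beside the others. In edgeR, 0 of 1134 members tested differed between CR-1-31-B and silvestrol at an adjusted p under 0.05, and 0% of all 24713 features did. The lowest adjusted p of a member was 1.00. At an unadjusted p under 0.05 there were 47 members (4.14%), beside 2.18% of the other coding sequences. DESeq2 and limma voom also called 0 members, with 54 and 70 at an unadjusted p under 0.05. In edgeR that number was 87 with the library number as a block, and it ran from 21 without CR-1-31-B library 2 to 111 without silvestrol library 1, where 0 members were called as well. It was also 87 without CR-1-31-B library 3. Between 1134 and 1151 members were tested in these alternative fits. Their counts at an unadjusted p under 0.05 were not set beside those of the other coding sequences, so nothing is read from them. The median SE of the log2 difference was 0.56, so that only large differences could have been detected in single members.

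By level, CR-1-31-B was above silvestrol in 806 members (70.0%) and in 60.6% of the other coding sequences, and the median ratio of the compounds was 1.19 and 1.09. Nothing is read from the excess of members, since the rule used both levels. CR-1-31-B library 2 was the highest of the rocaglate libraries in 436 of the 1152 members and in 1282 of the 6677 others. Silvestrol library 3 was the highest in the fewest members, 95, and in 954 of the others. Both compounds alone reached a ratio of 1.5 in 677 members, silvestrol alone in 118 and CR-1-31-B alone in 357. In 42 members the mean of 1 compound was below the DMSO mean. Among members named above, USP39 had a log2 difference of CR-1-31-B over silvestrol of 1.24 (95% interval 0.36 to 2.12), ZNF263 of 1.31 (0.29 to 2.34) and JUN of 1.24 (0.19 to 2.29). For RPL41 it was -0.43 (-1.41 to 0.55) and for RND2 -0.03 (-1.67 to 1.61). These intervals are from edgeR's SE with 6 residual degrees of freedom and are not adjusted for the number of members.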

How the data were processed

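Counts of reads per gene symbol in 7 classes of region were deposited by the authors, per the file headers, 1 table per library, with no normalization. The submitters' processing notes name cutadapt and Bowtie 1.1. Genome build, annotation, duplicate removal, use of strand and the counting rule are not given in the sources used here, so counts of near-identical copies, overlapping genes and antisense genes are uncertain. A blank line in each table was dropped. Replicate libraries differed by more than sampling noise, with a chi-square of 3.97 to 9.07 for each degree of freedom.

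The members and the gene lists were chosen with earlier results of these data known, and some list patterns were corrected after the files were seen. Features were tested with edgeR 4.0.16 (R 4.3.3): filterByExpr by group, TMM, quasi-likelihood F test, all 9 anti-FLAG libraries, Benjamini-Hochberg adjustment over 24713 features and a threshold of 0.05. The step was tested on simulated data. DESeq2 1.42.0, limma 3.58.1 (voom), DESeq2 size factors, no filter, the library number as a block, other count and ratio minimums and leaving out each library were alternatives. Planned protein features were replaced by those of coding sequences, since protein sequences were not used here. Coding length, GC content and purines of the first 100 bases were examined after the data were seen. Intervals of the input are at 95%, and like the floor of 3 counts they cover counting error only.

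Deviations of same-number libraries from their group means correlated at 0.101 to 0.263 in all 9 pairs. Those of other pairs correlated at -0.203 to 0.0165, so the numbers could be read as pairs. The main edgeR fit, and the fits that left out a library, did not use this pairing. It entered edgeR only in the alternative fit with the library number as a block. The pairing comes from the data, not from the labels. Named genes were to be the 12 members of highest ratio, the 10 of highest CPM, the 10 with the widest gap between groups, members called between the compounds, the 8 highest and 6 lowest leader ratios, the 4 most highly bound of each list with at least 3 members, and those at the thresholds. Of the 127 members this names, a part is described. DUSP1 and IER2 were added after their values were seen.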

Additional observations from a re-analysis of the deposited data

How the results depend on the processing

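The number of members depended on the rule. It was 683 with at least 180 counts, 1961 with a laxer ratio minimum, 454 with a ratio of 2, 677 when each compound alone had to reach 1.5, and 955 to 1490 when 1 library was left out. It was 1290 with TMM-scaled sizes and 1272 with the coding-sequence totals. The number of member leaders gaining was 636 with at least 45 counts, 199 with at least 180, 839 with the laxer ratio, 105 with a ratio of 2, 180 when each compound had to reach 1.5, and 305 to 527 without 1 library. The share gaining was above that of the other coding sequences in each of these repeats. The share of members under 500 bases over that at 3000 or more was 7.33 with at least 180 counts, 8.14 with at least 360 and 12.2 with a ratio of 2. It was 3.10 to 6.53 without 1 library. These alternatives for length were chosen after seeing the data.

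Member leaders called higher numbered 99 with DESeq2, 70 without a filter, and 30 with voom and with DESeq2 size factors. The shares of all features called in these fits were 2.16%, 0.48%, 0.48% and 0.49%, in that order. Member leaders called ranged from 3 to 70 without 1 library. With the library number as a block they numbered 111, and all 35 calls of the unblocked fit were among these. The block changed no member call between the compounds, which stayed at 0, as in every alternative run. Of the ratios of named members, 5 of 127 for coding sequences and 15 of 90 for leaders crossed 1 in at least 1 alternative. The coding sequences were FREM3 at 0.774 by medians, JUN at 0.898, E2F2 at 0.896, TTPAL at 0.993 and EBF3 at 0.915 with silvestrol alone. Of the leaders, MAP3K11 was at 0.955 by medians, PMAIP1 at 1.64 without DMSO library 2, and FAM105A at 1.36 by medians and 0.235 to 2.89 without 1 library. The other 12 crossed it by less than the spread between libraries. The cause was not tested. At 90 counts over 9 libraries, ratios of single members are imprecise.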
